A study of Homo sapiens with 12 samples.

Results

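4 transfer RNA (tRNA) loci held peaks among the most enriched of an eCLIP experiment on dSpCas9: TRU-TCA1-1, which encodes a selenocysteine tRNA, TRR-TCG1-1 and TRR-TCT1-1, which encode arginine tRNAs, and TRC-GCA3-1, which encodes a cysteine tRNA. They were selected on their enrichment over size-matched input in the same peak lists described here, so their enrichment there is a description and was not tested. A peak was assigned to a locus when the pair shared a strand and at least 1 nt. 40 of the 18128 peaks in the 4 lists lay on these loci, which is 0.221%. 16 of them were in the list of V5 IP over size-matched input, 8 in V5 IP over empty vector IP, 16 in FLAG IP over size-matched input and 0 in FLAG IP over empty vector IP.

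In eCLIP, UV light joins proteins to bound RNA inside living cells, a protein is recovered by immunoprecipitation (IP), and the RNA that comes with it is sequenced. The protein was dSpCas9, a catalytically dead Cas9 of Streptococcus pyogenes, tagged with V5 or 3xFLAG and made from a transfected plasmid, without a nuclear localization signal and without a guide RNA, in HEK 293T cells, a human embryonic kidney line. There were 12 libraries in 6 groups of 2 replicates: V5-dSpCas9 with V5 IP, its size-matched input (RNA of the same size range that did not go through IP), V5 IP from cells with empty vector, and the same 3 groups for 3xFLAG-dSpCas9 and the FLAG antibody. All were cross-linked with 400 mJ/cm2 of UV light, given 2 times, and RNA was taken from the membrane above 115 kDa. Expression was transient, and the empty vector groups carried the plasmid without dSpCas9. The authors deposited 1 list for each antibody and control. Each peak carries an enrichment, the log2 of the ratio between IP and control reads, as a geometric mean of both replicates, and a −log10 p with a ceiling of 400. Because both replicates are already combined in each value, no value below has a replicate error, and the depth of the libraries is unknown. The lists held 6605, 3005, 6554 and 1964 peaks in the order given above, and none had an enrichment below 3.00, an 8-fold ratio. A locus that is missing from a list may have had a lower ratio, a higher p or poor agreement between replicates, and these cannot be told apart.

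tRNAs carry amino acids to the ribosome and read codons of the mRNA with their anticodon. RNA polymerase III transcribes most of their genes from promoter boxes that lie inside the gene, and usually ends at a run of T shortly after it. A 5′ leader, where the precursor has one, and the 3′ trailer are then removed, and CCA is added to the 3′ end. An intron next to the anticodon is spliced out of some precursors, among them that of TRR-TCT1-1. The selenocysteine tRNA is charged with serine, which is then converted to selenocysteine and inserted at UGA codons of selenoprotein mRNAs; it is longer than other tRNAs because of its long acceptor arm and variable arm.

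The 4 genes are printed as DNA of the RNA strand, read from hg38 at positions from RefSeq on GRCh38.p14, because the place of the peaks within the tRNA carries much of what follows. Each runs 5′ to 3′ from the first base of the gene, or of the locus where that starts earlier, to the end of the locus, and capitals mark the bases inside the locus.
TRU-TCA1-1: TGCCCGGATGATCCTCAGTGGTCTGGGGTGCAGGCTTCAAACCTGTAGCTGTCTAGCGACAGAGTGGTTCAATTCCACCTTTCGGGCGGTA
TRR-TCG1-1: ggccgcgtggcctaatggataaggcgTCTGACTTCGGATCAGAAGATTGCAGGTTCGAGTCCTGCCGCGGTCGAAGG
TRC-GCA3-1: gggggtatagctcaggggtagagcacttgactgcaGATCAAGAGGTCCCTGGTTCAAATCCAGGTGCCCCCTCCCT
TRR-TCT1-1: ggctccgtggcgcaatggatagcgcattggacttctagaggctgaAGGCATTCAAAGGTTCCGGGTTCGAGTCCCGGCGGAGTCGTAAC

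The TRU-TCA1-1 gene lies at chr19:45478601-45478687 on the minus strand and is 87 nt long. It sits in an intron of ERCC1, a protein-coding gene for a subunit of a DNA repair nuclease, and on the same strand. The TRR-TCG1-1 gene is at chr15:89335073-89335145 on the plus strand, is 73 nt long and lies in the single exon of the lncRNA POLG-DT. The TRC-GCA3-1 gene is at chr7:149589073-149589144 on the minus strand, is 72 nt long and lies in an intron of the lncRNA ZNF767P. The TRR-TCT1-1 gene is at chr1:93847573-93847657 on the plus strand, is 85 nt long and lies in the single exon of the lncRNA ENSG00000260464. Each tRNA gene thus shares its strand with an overlapping gene, and the host genes had 0 other peaks in the 4 lists.

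TRU-TCA1-1 had the highest enrichment of any peak in both lists over size-matched input. Over V5 size-matched input it held 7 peaks at 8.19 to 8.56, and the top peak corresponded to 378-fold more IP than input reads and ranked 1 of 6605. Over FLAG size-matched input it held 9 peaks at 8.17 to 9.52, and the top peak was 732-fold and ranked 1 of 6554. The −log10 p of this top FLAG peak was 221, below the ceiling. Over V5 empty vector IP the 5 peaks of the same locus lay at 3.24 to 3.35, and the highest of these was 10.2-fold and ranked 2128 of 3005. It had no peak over FLAG empty vector IP. The locus was thus at the top of both input lists, while in the V5 empty vector list 70.8% of all peaks were at least as enriched.

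TRR-TCG1-1, an arginine tRNA with the anticodon TCG, followed. Its 4 peaks over V5 size-matched input lay at 7.02 to 7.97, up to 252-fold, and ranked up to 13 among peaks. Its 3 peaks over FLAG size-matched input lay at 7.53 to 8.69, up to 414-fold, and ranked up to 7. Touching peaks of 1 site count separately in these ranks, and with touching peaks merged the ranks were 5 and 4. Over V5 empty vector IP it had 1 peak of 2 nt with an enrichment of 3.22, 9.3-fold, and a −log10 p of 60.8. It had none over FLAG empty vector IP.

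TRR-TCT1-1 is the arginine tRNA with the anticodon TCT and an intron. Of the 4 members, it alone had a higher top peak over size-matched input in V5 than in FLAG. It held 2 peaks over V5 size-matched input, at 7.11 and 7.27 (154-fold), with a rank of 19 for the higher. Over FLAG size-matched input it held 2 peaks at 6.40 and 6.51 (91-fold), with a rank of 52. Over V5 empty vector IP both of its peaks were at 3.39, the higher 10.5-fold, and 67.2% of peaks in that list were at least as enriched. It had none over FLAG empty vector IP.

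TRC-GCA3-1, the cysteine tRNA, had peaks over size-matched input only. Its 3 peaks in V5 lay at 6.73 to 6.86, up to 116-fold, and its 2 peaks in FLAG at 7.06 and 7.13, up to 140-fold. The highest ranked 29 and 36. The −log10 p of the 3 V5 peaks was 50.1 to 54.6, whereas both FLAG peaks were at the ceiling. 11 of the 16 pairs of a locus and a list therefore held a peak, and the 5 empty pairs were all against empty vector IP.

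**Figure D1:**
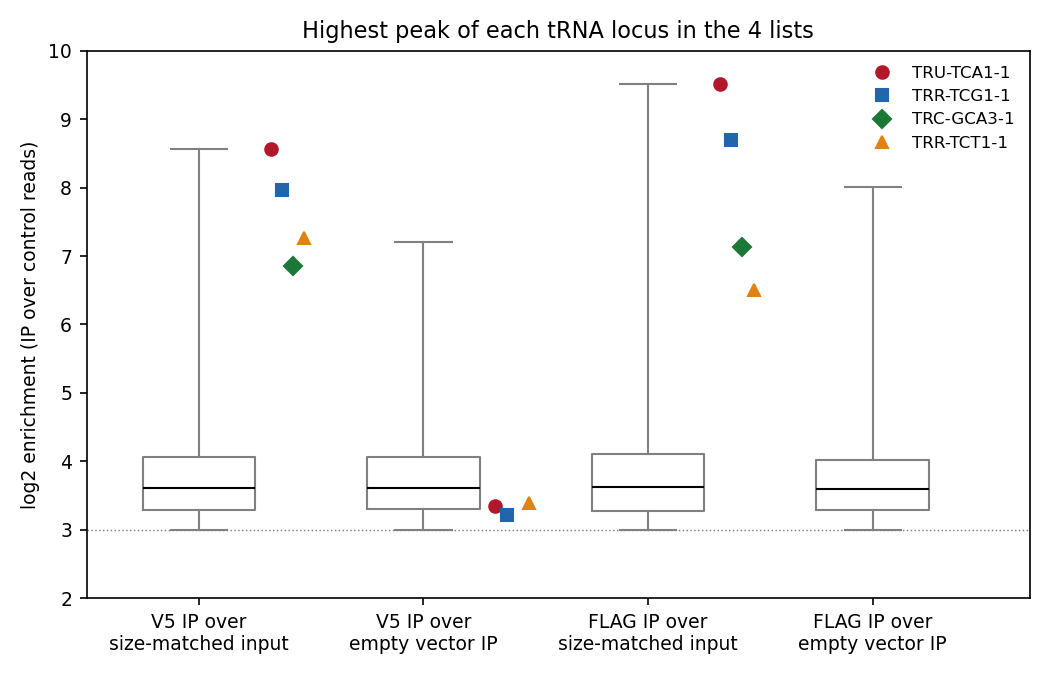
Highest log2 enrichment of each tRNA locus (coloured symbols) in the 4 peak lists, beside a box plot of all peaks of the list (line, median; box, quartiles; whiskers, lowest and highest). The members lie at 6.51 to 9.52 over size-matched input and at 3.22 to 3.39 over V5 empty vector IP, next to the lower bound of 3 (dotted), and no symbol is drawn where a locus had no peak.

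Set side by side, the highest enrichments over size-matched input differed by less than 1 log2 unit between the 2 antibodies at each locus. The highest FLAG value minus the highest V5 value was 0.95 for TRU-TCA1-1, 0.72 for TRR-TCG1-1, 0.27 for TRC-GCA3-1 and −0.76 for TRR-TCT1-1. These peaks need not cover the same bases. From position 36 of TRU-TCA1-1 on, the V5 peaks were at 8.48 to 8.56 and the FLAG peaks at 8.17 to 8.51. Before that position the FLAG peaks were at 9.38 to 9.52, above all V5 peaks of the locus. Ordered by the mean of both, the values were 9.04 for TRU-TCA1-1, 8.33 for TRR-TCG1-1, 6.99 for TRC-GCA3-1 and 6.89 for TRR-TCT1-1. TRC-GCA3-1 and TRR-TCT1-1 changed places between the antibodies, so their order was not determined. By highest peak, TRU-TCA1-1 stood above TRR-TCG1-1, and TRR-TCG1-1 above the other members, in both. In FLAG, TRU-TCA1-1 did so only through its peaks before position 36. Its FLAG peaks from there on lay below the 8.69 of TRR-TCG1-1 at positions 32 to 77. All 16 member peaks over V5 size-matched input overlapped a peak over FLAG size-matched input, against 54.0% of all V5 peaks. The rule used both of these lists, so nothing is read from this.

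The choice of control made a larger difference. From size-matched input to empty vector IP, the highest V5 value fell from 8.56 to 3.35 for TRU-TCA1-1, a difference of 5.22 from unrounded values. The same difference was 4.75 for TRR-TCG1-1 and 3.88 for TRR-TCT1-1. Only the value of TRR-TCT1-1 compares peaks with the same borders. For TRU-TCA1-1 and TRR-TCG1-1 the highest peaks of the lists lay at different positions, and at equal borders the differences were 5.14 and 3.80. Both V5 comparisons used the same IP libraries, so at equal borders the reads of the V5-dSpCas9 IP cancel from the difference. What remains is the log2 ratio of empty vector V5 IP over size-matched input reads, up to a scaling that is not known. Up to that scaling, a positive difference means more reads in V5 IP without dSpCas9 than in input. In V5, 1480 peaks had the same borders in both lists, and their median difference, input minus empty vector, was 0.10. The 6 of these on the tRNA loci differed by 3.72 to 5.14. At TRR-TCT1-1, for example, positions 46 to 69 had 7.11 over input and 3.39 over empty vector IP, and at TRR-TCG1-1 positions 27 to 28 had 7.02 and 3.22. Of the other 1474, the highest difference was 3.26, the median was 0.09, and 617 were below 0. The members were chosen for high values over input, which pushes this difference up, so it is given as a description. When any overlap was allowed instead of equal borders, 3 of 2374 other pairs, 0.126%, reached 3.72.

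**Figure D2:**
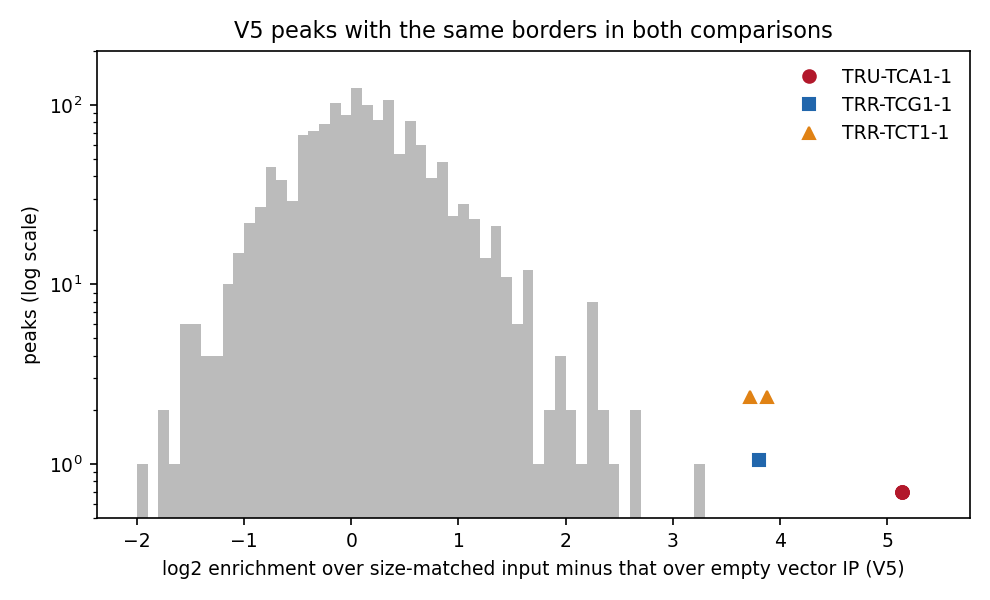
Histogram (grey, log-scaled count axis) of the log2 enrichment over V5 size-matched input minus that over V5 empty vector IP, for the 1474 peaks outside the tRNA loci with equal borders in both lists; symbols mark the 6 peaks on the tRNA loci, with their height chosen for display only, and the 3 of TRU-TCA1-1 lie on top of each other. The grey bars end at 3.26 and the symbols start at 3.72.

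At TRU-TCA1-1 and TRR-TCT1-1, a low ratio over V5 empty vector IP stood beside a p-value at the ceiling. 7 of the 8 member peaks over V5 empty vector IP were at the ceiling of the −log10 p, compared with 1.23% of all peaks in that list. These 7 belong to 2 loci, 5 to TRU-TCA1-1 and 2 to TRR-TCT1-1, while the 1 peak of TRR-TCG1-1 was at 60.8. Of the 1254 peaks in the list with an enrichment below 3.5, 13 were at the ceiling, and 7 of these 13 were the peaks of these 2 loci. Over size-matched input, 10 of 16 member peaks in V5 were at the ceiling against 4.13% of the list, and 13 of 16 in FLAG against 5.26%. Touching peaks of 1 locus count separately here. For TRU-TCA1-1, TRR-TCG1-1, TRC-GCA3-1 and TRR-TCT1-1 in this order, 4, 4, 0 and 2 peaks were at the ceiling in V5. In FLAG these were 6, 3, 2 and 2. These shares, from the lists that chose the members, are given without a test.

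Member peaks shared between the 2 controls were found in V5 only. Of the 16 member peaks in the V5 input list, 7 shared bases with a peak of the V5 empty vector list, beside 36.0% of all such peaks. In FLAG 0 of 16 did so, beside 27.9%. Most of those other peaks were less enriched than the members. With touching peaks merged and an enrichment over V5 input of at least 6.86, 4 of 5 member intervals and 6 of 9 others did so. For FLAG at 6.51 or more, these were 0 of 4 and 8 of 13. The lists were intersected within each antibody and then between antibodies. The study's methods ask for a minimum overlap of 50%, which was read here as 50% of the first interval, so the intervals counted here need not be the study's own. The V5 intersection held 2303 intervals, of which 7 were on members: 4 on TRU-TCA1-1 with 50 nt in all, 1 of 2 nt on TRR-TCG1-1 and 2 with 44 nt on TRR-TCT1-1. The FLAG intersection held 1753 intervals with 0 on members, and so 0 of the 749 intervals found in all 4 lists lay on these loci.

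Over size-matched input, the peaks covered the 3′ part of each tRNA and ended a few bases beyond it. Over V5 empty vector IP the peaks of TRU-TCA1-1 and TRR-TCT1-1 did so too, whereas the single peak of TRR-TCG1-1 covered positions 27 to 28 only. Positions are counted from 1 at the first base of the gene. In TRU-TCA1-1 the peaks over FLAG size-matched input covered the whole gene, and those over V5 size-matched input 97.7% of it. Within that gene the antibodies placed the top differently: the highest V5 peak covered positions 26 to 66, including the anticodon at 36 to 38, and the highest FLAG peak covered positions 14 to 35, directly before the anticodon. From position 36 on, the FLAG peaks were at 8.17 to 8.51 with a −log10 p at the ceiling, whereas those before it had a −log10 p of 197 to 221. Over V5 empty vector IP, the peaks of TRU-TCA1-1 began at position 34. In TRR-TCG1-1 the peaks began at position 27 and the anticodon is at 34 to 36. In TRC-GCA3-1 they began at 36, directly after the anticodon at 33 to 35. In TRR-TCT1-1 they began at 46, inside the intron of 12 bases at positions 38 to 49, so that the last 4 bases of the intron were covered in all 3 lists with a peak. No peak of the last 3 genes covered the 5′ end of the gene: 64.4%, 51.4% and 47.1% of TRR-TCG1-1, TRC-GCA3-1 and TRR-TCT1-1 lay in the locus.

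At the 3′ end, the loci extended 3 bases past the annotated gene in TRU-TCA1-1 and 4 in each of the other three, in every list over size-matched input. The genome does not read CCA at these bases, which are the last capitals of the printed sequences. The next run of TTTT, which ends RNA polymerase III transcripts, began at base 45 after TRU-TCA1-1, base 20 after TRR-TCG1-1, base 6 after TRC-GCA3-1 and base 7 after TRR-TCT1-1. Over all 443 nuclear tRNA genes of RefSeq, 91.4% had TTTT within 100 bases, and in 46.7% it started within 10 bases. Among the 405 genes with TTTT within 100 bases, the median of its first base was 10. Peak ends follow from where reads end and from how they were aligned, and the bases past the gene were not tested for whether reads carried them.

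**Figure D3:**
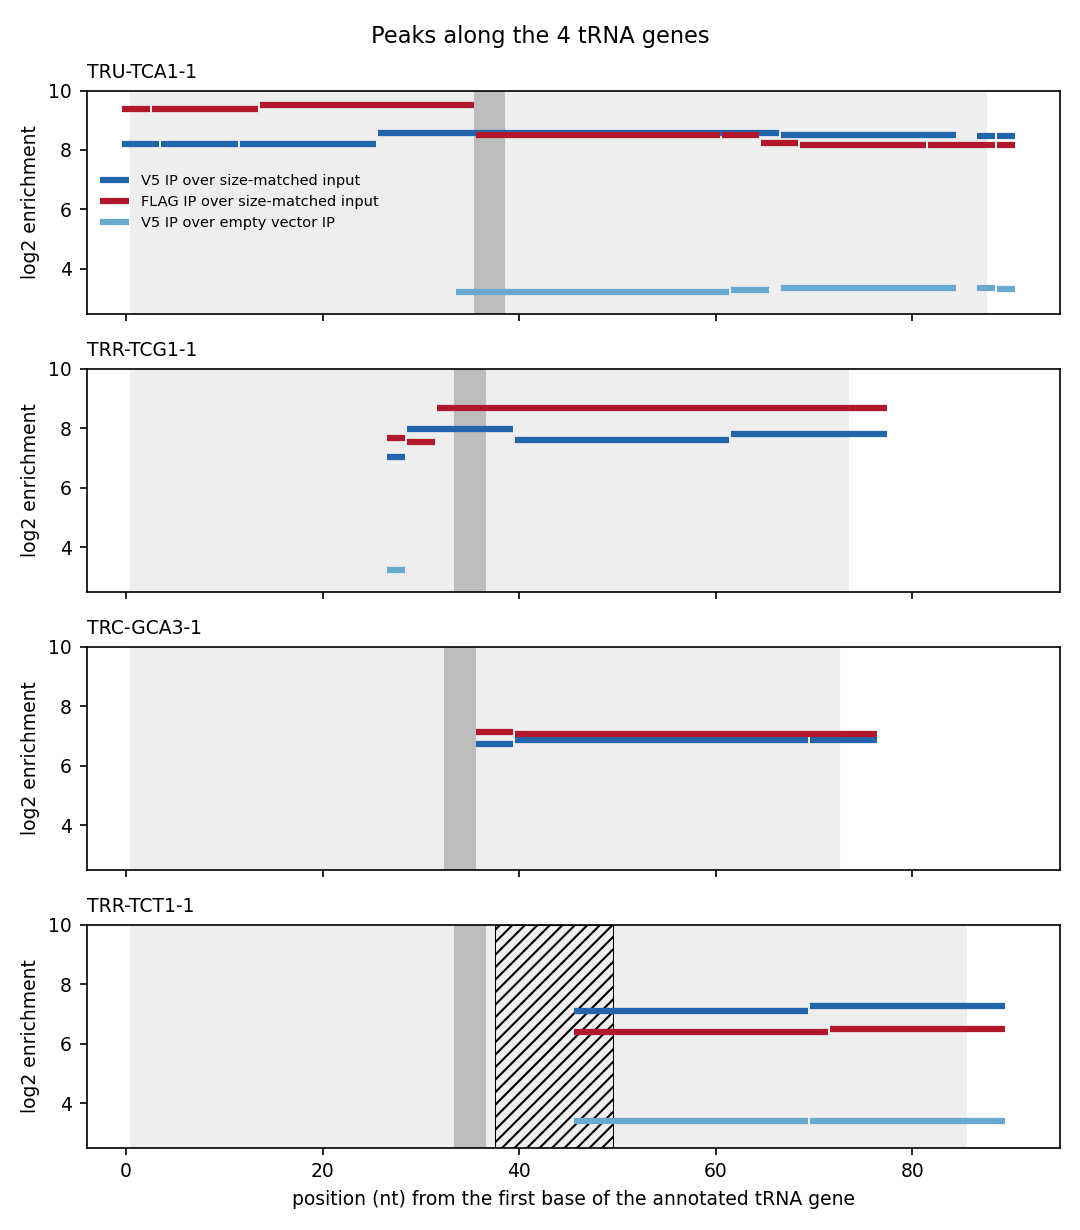
Peaks (horizontal bars at their log2 enrichment) along the 4 tRNA genes, by position from the first base of the gene; light grey marks the annotated gene, dark grey the anticodon and hatching the intron of TRR-TCT1-1. Peaks over size-matched input (blue, V5; red, FLAG) lie at 6.40 or higher, peaks over V5 empty vector IP (light blue) at 3.39 or lower, and the peaks of the lower 3 genes start after the 5′ part of the gene.

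All 4 genes contain the letters of the B box, which is part of the internal promoter of most tRNA genes. It was searched as GTTCNANNC on the gene's strand in the 3′ part of the gene. Whether each gene depends on it was not tested. The B box letters lay at positions 66 to 74 in TRU-TCA1-1, 53 to 61 in TRR-TCG1-1, 52 to 60 in TRC-GCA3-1 and 65 to 73 in TRR-TCT1-1. The peaks over size-matched input covered it in each, and 88.0% of the 443 nuclear tRNA genes contain it. None of the 4 genes has an identical copy among annotated tRNA genes, whereas 49.9% of nuclear tRNA genes do. The gene nearest in sequence to TRU-TCA1-1 was TRU-TCA2-1 at an edit distance of 7, to TRR-TCG1-1 it was TRR-TCG3-1 at 7, and to TRR-TCT1-1 it was TRR-TCT3-2 at 13. TRC-GCA3-1 stood apart: it differs from TRC-GCA9-1 at chr3:132231798-132231869 by 1 base (C26T, counted from the first base of the gene, with the base of TRC-GCA3-1 given before its position), shown here in capitals.
TRC-GCA9-1: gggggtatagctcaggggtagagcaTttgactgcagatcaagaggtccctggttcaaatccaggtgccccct
That base lies before the locus. The 37 bases of the TRC-GCA3-1 gene that lie in the locus occur in 9 annotated tRNA genes, while those of the other members occur in 1 place of the genome. Only with the 4 trailing bases did the TRC-GCA3-1 locus match the genome in 1 place. How reads with several matches were treated is not given in the sources used here, and whether reads of these other genes contributed to the value of TRC-GCA3-1 was not tested.

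Among all 443 nuclear tRNA genes, few had a peak. 15 had one over V5 size-matched input (3.39%), 6 over V5 empty vector IP (1.35%), 18 over FLAG size-matched input (4.06%) and 0 over FLAG empty vector IP (0%), and the members made up 4, 3, 4 and 0 of these. All 18 genes had a peak over FLAG size-matched input, 3 of them had none over V5 size-matched input, and none had a peak on the opposite strand. 7 of the 18 carry arginine (of 26 arginine tRNA genes), 4 serine (of 26), 3 lysine (of 27), and 1 each cysteine (of 29), selenocysteine (of 2), tryptophan (of 7) and alanine (of 33). Within their own families the members were 1 of 1 cysteine tRNA gene with a peak, 1 of 2 with the anticodon TCG, 1 of 2 with the anticodon TCT and 1 of 1 for selenocysteine. 5 of the 18 genes, 27.8%, have an identical copy, and reads that lie within such a gene cannot be placed by sequence. Whether reads that reach into the flank were placed was not tested.

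Below the members, the most enriched tRNA gene was TRK-CTT1-2, a lysine tRNA with 1 identical copy. It had 5.55 over V5 size-matched input, below all 4 members, but 7.47 over FLAG size-matched input, above TRC-GCA3-1 and TRR-TCT1-1, and 3.06 over V5 empty vector IP. TRR-TCT4-1, an arginine tRNA of the same anticodon as TRR-TCT1-1, had 5.52 in V5, 6.23 in FLAG and 3.13 over V5 empty vector IP. TRR-CCT4-1 had 5.16 and 6.02 over the V5 and FLAG inputs, TRS-AGA2-6 had 5.49 and 5.90, and TRR-CCT1-1 had 5.29 and 5.86. TRK-CTT1-2, TRR-TCT4-1 and these genes lay close together in V5, below every member. TRR-ACG2-1 had 5.48 and 5.69, with 3.34 over V5 empty vector IP. TRS-TGA2-1 had 5.27 and 4.79, and TRS-GCT3-1 had 5.00 and 5.10. TRR-TCG3-1, the nearest relative of TRR-TCG1-1, had 3.99 and 4.78, and TRS-TGA3-1 had 4.25 over FLAG size-matched input only. The 3 non-members with a peak over V5 empty vector IP had 3.06 to 3.34 there, a range that overlapped that of the members, 3.22 to 3.39. The highest FLAG value exceeded the highest V5 value in 9 of the 11 non-members with both inputs, as in 3 of the 4 members. Merged peaks reached past the 3′ end of the gene in 27 of 33 gene and list pairs over size-matched input, by a median of 4 bases and a range of −65 to 11, where a negative value is a peak that ends inside the gene.

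**Figure D4:**
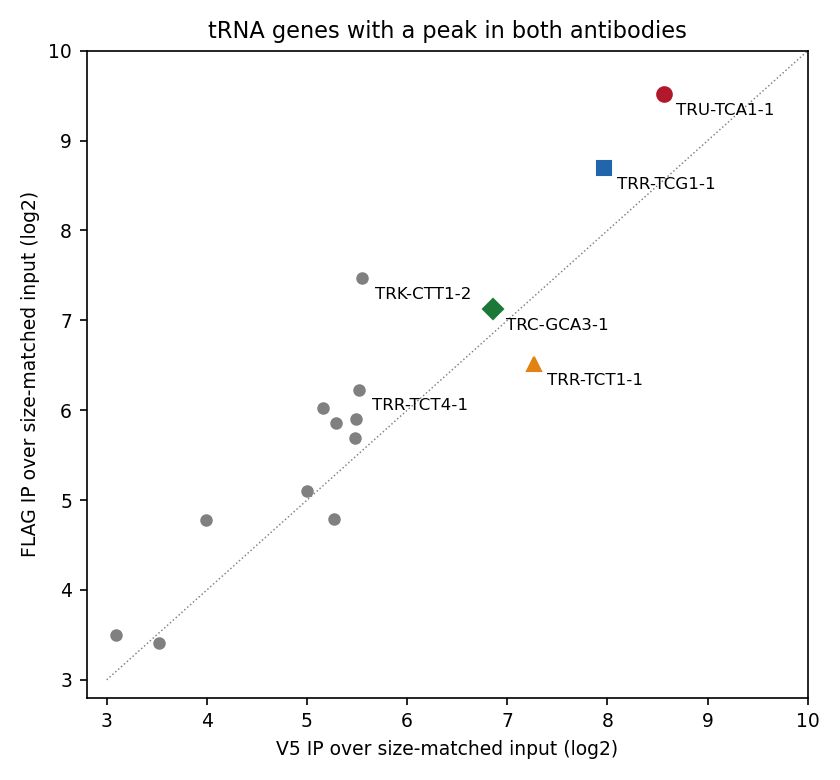
Highest log2 enrichment over FLAG size-matched input against that over V5 size-matched input for the 15 nuclear tRNA genes with a peak in both; coloured symbols mark the 4 members, grey points the other 11, and the dotted line equal values. The members lie at 6.86 or higher on the V5 axis and the others at 5.55 or lower, and TRK-CTT1-2 at 7.47 on the FLAG axis overlaps the range of the members.

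The study describes a loop with GU upstream of a stem in the guide RNA of SpCas9, and modelled this as a GU-loop:5nt-stem. The model was read here as GU followed directly by 5 paired bases. The study does not state that the stem follows GU directly, so the sites counted here need not be the study's own. Folded with genomic flanks of 50 nt, the model was met in 2 of the 4 loci. In TRU-TCA1-1 it was met at G 20 (GTCTGGG, with a pairing probability of 0.642 for the U and 0.823 to 0.938 for the 5 following bases) and at G 27 (GTGCAGG, 0.620 and 0.823 to 0.977). In TRR-TCG1-1 it was met at G 59 (GTCCTGC, 0.289 and 0.683 to 0.934). None of the 3 GU of the TRC-GCA3-1 locus and none of the 4 of the TRR-TCT1-1 locus met it. Both sites of TRU-TCA1-1 lie outside the peaks over V5 empty vector IP, which start at 34. Searched in the annotated gene, the motif occurred in 42.2% of all 443 nuclear tRNA genes and in 55.6% of the 18 with a peak, that is in 10, beside 2 of the 4 members. The fold is that of the genomic sequence, and a mature tRNA carries modified bases and no leader or intron, so the model need not describe the RNA in the cell.

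The genes of tRNA biology were compared as mRNAs from a list of 63, all annotated in GENCODE. 24 of them had an exonic peak in at least 1 list, beside 18.1% of all 20020 protein-coding genes. By list, 21 had one over V5 size-matched input (13.6% of all), 8 over V5 empty vector IP (6.79%), 16 over FLAG size-matched input (13.2%) and 5 over FLAG empty vector IP (4.97%). The background takes in genes that these cells may not express, and expression was not analysed here, so nothing particular to the list is read from these counts. By group, these were 10 of 18 genes of RNA polymerase III and its factors, 6 of 21 of maturation, splicing and export, 4 of 7 of selenocysteine insertion, 3 of 13 of anticodon loop modification and 1 of 4 of charging with arginine or cysteine. 4 genes of the list had an exonic peak in all 4 peak lists. The share of all protein-coding genes with this was not counted, so nothing is read from that number. None of the tRNA loci had a peak in all 4. The peaks of a gene can lie at different exonic sites, so genes and tRNA loci are not like units here. SARS1, the synthetase that charges serine and selenocysteine tRNAs with serine, had 4.04 over V5 input, 4.99 over V5 empty vector, 4.07 over FLAG input and 3.36 over FLAG empty vector. SSB, the La protein that binds the 3′ ends of new RNA polymerase III transcripts, had 5.15, 5.37, 4.77 and 4.05 in the same order. XPOT, the export receptor for tRNAs, had 3.71, 3.52, 4.40 and 3.76. GTF3C4, a subunit of TFIIIC, the factor that binds the B box, had 5.14, 4.36, 4.99 and 5.01.

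The genes whose values lay nearest to those of the members were found by Euclidean distance over the highest enrichments in the 3 lists in which each member had a peak, among 455 genes with a peak in the same lists. Nearest to TRU-TCA1-1 were TRR-TCG1-1 at a distance of 1.02 and the gene ENSG00000269237 at 1.17. ENSG00000269237, with an intronic peak at 8.03, 3.23 and 8.48 over V5 input, V5 empty vector and FLAG input, was also nearest to TRR-TCG1-1, at 0.22. Nearest to TRR-TCT1-1 were PRKCA, a protein kinase gene, at 0.52 with 6.87, 3.61 and 6.25, and ENSG00000272162 at 1.48 with 5.94, 3.45 and 7.15. TRC-GCA3-1 had peaks in 2 lists only and was not compared. High values over input with low values over V5 empty vector IP were thus also present at a few other genes.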

How the data were processed

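eCLIP was measured in 12 libraries, taken into 6 groups from the sample labels. Per the labels, the submitters' processing notes and the study's methods, the authors trimmed and aligned reads to hg38 (UMI-tools 1.0.0, cutadapt 1.14, STAR 2.4.0i, SAMtools 1.6, eCLIP pipeline 0.4.0), and combined the replicates of each comparison with IDR, the Irreproducible Discovery Rate. The deposited columns are the log2 of the geometric mean of IP over control reads, at least 3 as the methods state, and the −log10 of a p-value under 0.001. The peak caller's version, the scaling for library size and the treatment of reads with several matches are not given in the sources used here.

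Peaks were assigned to loci and genes by a shared strand and at least 1 shared nt with Python 3.11.15, and intersections (50% of the first interval) were checked with bedtools 2.31.1. tRNA genes came from RefSeq (GRCh38.p14), which gave no strand: 397 strands were set by the B box and 46 by the nearest sequence (edlib 1.3.9.post1). Other genes came from GENCODE version 44. Pairing used RNAplfold of ViennaRNA 2.7.2 (window 70, span 70, u = 1), with the U paired below 0.7 and the stem above 0.5. On simulated lists, the intersection found 400 of 400 sites planted in all lists and 0 of 1200 sites planted in 1 list only. The planted sites were nearly aligned between lists and overlapped by well over 50%, so these counts check the code only. Sites missing from only 1 list were not simulated, nor were short peaks with differing borders as on the members. The members and lists were chosen with earlier results of these data known. The genes named are the members, their hosts, the 10 tRNA genes next in enrichment and the identical copy of TRK-CTT1-2. Also named are tRNA pathway genes with a peak in all 4 lists and the 2 nearest genes by Euclidean distance. With 1 combined value per peak, no test was made. Alternatives covered the overlap, strand, thresholds, merging of touching peaks, flanks and the counting of identical genes.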

Additional observations from a re-analysis of the deposited data

How the results depend on the processing

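No paired analysis was possible because each deposited value combines both replicates; for the same reason no replicate could be left out. Of 48 alternative values, 32 stayed within their limit and 16 moved, but the limits differed between results. At an enrichment of at least 4, 8 in place of 11 pairs of a locus and a list counted as unchanged. For TRC-GCA3-1 over V5 size-matched input, a length-weighted mean of 6.84 in place of 6.86 counted as moved. With touching peaks merged, the members held 5 peaks over V5 size-matched input, 5 over V5 empty vector IP and 4 over FLAG size-matched input, in place of 16, 8 and 16. At an enrichment of at least 4, the members had 0 peaks over V5 empty vector IP, and 8 pathway genes in place of 24 had a peak. The GU-loop:5nt-stem was met in 1 locus with the U paired under 0.5 (TRR-TCG1-1) and in 1 with the stem over 0.7 (TRU-TCA1-1). Length-weighted means over a locus were 0.00 to 0.73 lower than its highest peak. With no flank, 3 loci in place of 2 met the model, which counted as unchanged. None of the 4 alternative intersections gave an interval on the members. Depth is unknown, so an absent peak cannot be read as absent binding.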

Other observations

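RefSeq also lists 22 mitochondrial tRNA genes, and 2 of them overlapped a peak. The gene for the cysteine tRNA, TRNC, overlapped a minus-strand peak at chrM:5797-5819 with a log2 enrichment of 4.38 over FLAG size-matched input. The gene for the proline tRNA, TRNP, overlapped minus-strand peaks of 3.53 over V5 size-matched input and 4.00 over FLAG size-matched input. Neither had a peak over empty vector IP. These genes were chosen after their values were seen.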
